A study of Homo sapiens with 3 samples.

Results

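Interferon-stimulated genes are the genes that a cell turns on when it senses an interferon, and the 47 described here were taken as a named list of such genes. All 47 were found by symbol among the 60554 genes of a count table from KYSE30, a human cell line of squamous carcinoma of the esophagus. RNA sequencing was done on 3 stable lines, with 1 library each: a line carrying shRNA 1 against SNORD12B, a line carrying shRNA 2 against SNORD12B, and a control line. SNORD12B is a box C/D small nucleolar RNA, and each line was made by exposing KYSE30 to lentivirus from the pLKO.1 blasticidin vector for 24 hours and keeping 5 ug/mL blasticidin on the cells for 2 weeks, in medium with 10% serum. For the control, the genotype label reads vector, while the treatment text describes a scrambled shRNA without a target. The sources used here do not say whether a line is 1 clone or a pool, and each line gave 1 library. Every difference below is therefore a difference between single libraries, except where the pair of shRNA libraries was tested against the control.

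Type I and type III interferons bind receptors at the cell surface, which activate the kinases JAK1 and TYK2. These phosphorylate STAT proteins, STAT2 among them, which join IRF9 in a complex called ISGF3 that binds the interferon-stimulated response element of target promoters. The products sense viral RNA, block viral entry, translation and replication, conjugate the ubiquitin-like protein ISG15, or feed back on the receptor. Epithelial cells are known both to make and to answer type III interferons, the interferon lambdas.

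SNORD12B, the targeted RNA, had 15 counts in the library labelled shRNA 1, 1 count in the library labelled shRNA 2 and 7 counts in the control. The count ratio to the control was 2.17 for the label shRNA 1 (95% exact interval 0.831 to 6.28) and 0.126 for the label shRNA 2 (0.0028 to 0.982), so the library labelled shRNA 1 showed no lower count, which goes against its label. So few counts of a short RNA leave the depletion unchecked in both. Total counts were 15146805 and 17336936 in the libraries labelled shRNA 1 and shRNA 2, and 15473922 in the control. The 12 squamous epithelial markers summed to 3273 and 5235 CPM for the libraries labelled shRNA 1 and shRNA 2 and to 4646 CPM in the control. Of these sums ITGB4 alone gave 1656, 2851 and 1949 CPM in that order, and KRT5 had only 3, 2 and 1 counts. Of the 12, 11 lay below the control under the label shRNA 1 (48.5% of the 17801 genes that passed the filter on low counts). Under the label shRNA 2 it was 7 of the 12 (50.3%), which is near that share, and 5 lay above. At least 2-fold lower were 3 of the 12 under the label shRNA 1 (5.58%) and 2 under the label shRNA 2 (3.46%), and 0 were 2-fold higher in either. SOX2 had ratios to the control of 0.117 and 0.373 under the labels shRNA 1 and shRNA 2. KRT6A had 0.516 and 0.294, and KRT17 had 0.163 and 0.56. The part of these markers in the results below was not tested. The 10 leukocyte markers summed to 2.5 and 3.05 CPM for the libraries labelled shRNA 1 and shRNA 2 and to 3.19 CPM in the control, and PTPRC, which encodes CD45, had 0, 1 and 0 counts. The 8 fibroblast markers summed to 9.47, 13.7 and 16.01 CPM in that order, nearly all of it COL1A1, with COL1A2, PDGFRA, DCN, LUM and THY1 at 0 counts throughout. The 5 endothelial markers summed to 0.921, 5.81 and 3.71 CPM, of which CDH5 gave 0.855, 5.23 and 2.6 CPM. Levels are in CPM, each gene's count as a share of the scaled library total, and intervals of ratios cover counting error only.

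Across the whole list, the library labelled shRNA 2 carried the most interferon-stimulated transcripts and the library labelled shRNA 1 the fewest. Their summed level was 4798 CPM under the label shRNA 1, 8508 CPM under the label shRNA 2 and 6079 CPM in the control. In bulk RNA, fewer responding cells and less RNA per cell cannot be told apart. In the library labelled shRNA 2, 45 of the 47, CMPK2 by 1 count, lay above the control (49.7% of the 17801 genes that passed the filter) and 2, IRF7 and EPSTI1, below it (50.3%). Under the label shRNA 1, 15 lay above the control (51.5% of all genes tested), 31 lay below it (48.5%) and CMPK2 had no count in either. At least 2-fold higher than the control under the label shRNA 2 were 12 of the 47 (2.98% of all genes tested), and 1, IRF7, was at least 2-fold lower (3.46%). Past 1.5-fold, 26 were higher (9.38%). The 2-fold numbers under the label shRNA 1 were 1 higher, XAF1 (3.74%), and 3 lower, OASL, RSAD2 and GBP1 (5.58%), and past 1.5-fold 2 were higher (10.8%). Median log2 ratios to the control were -0.14 under the label shRNA 1 and 0.64 under the label shRNA 2, where the medians of all genes tested were 0.012 and -0.002. Both ratios share the one control library, so they are given side by side and not compared as independent results.

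**Figure D1:**
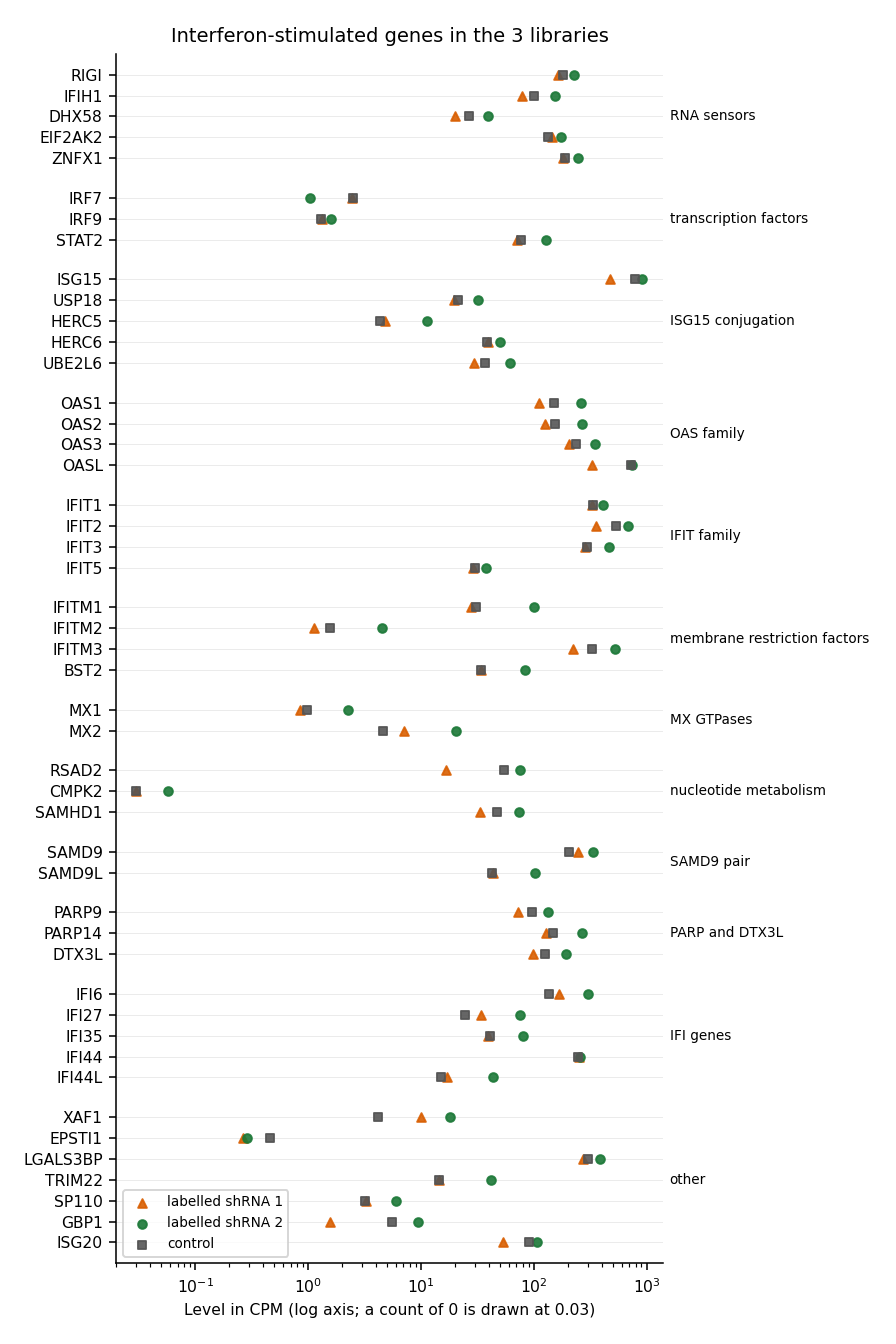
Level of each of the 47 genes in CPM on a log axis, in the libraries labelled shRNA 1 (orange triangles) and shRNA 2 (green circles) and in the control (grey squares), 1 library each, grouped by role. The library labelled shRNA 2 holds the highest value for 45 of the 47 genes (34.8% of the 17801 genes that passed the filter). CMPK2 and EPSTI1 lie below 1 CPM in every library. A count of 0 is drawn at the left end of the axis.

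The direct ratio between the shRNA lines leaves the control out. Of the 47 genes, 46 lay above the library labelled shRNA 1 in the library labelled shRNA 2 (49.9% of all genes tested) and 1 below it (50.1%). At least 2-fold above it were 21 of the 47 (6.61%), at least 1.5-fold above it 34 (15.8%), and 1, IRF7, was at least 2-fold below it (5.54%). The median log2 ratio of the label shRNA 2 over the label shRNA 1 was 0.96 over the list and -0.001 over all genes tested. The members that stood furthest apart in this ratio were GBP1 (5.97-fold), RSAD2 (4.59-fold) and IFITM2 (4.06-fold). Of the 47, 45 passed the filter on low counts, while CMPK2 and EPSTI1 did not.

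**Figure D2:**
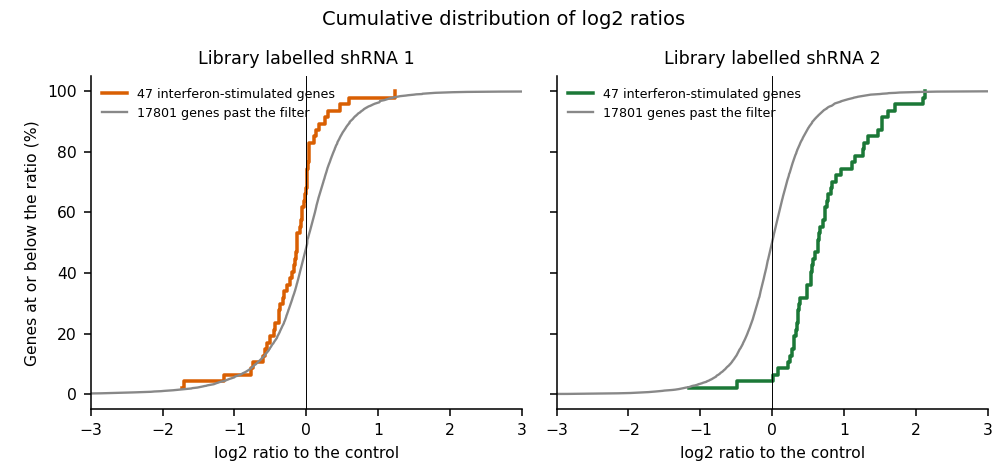
Cumulative percentage of genes (vertical axis) at or below a log2 ratio to the control (horizontal axis), for the 47 genes in colour and for the 17801 genes past the filter in grey, by shRNA library. The coloured curve for the label shRNA 2 lies to the right of the grey one, with a median of 0.64, and that for the label shRNA 1 slightly to the left, with a median of -0.14.

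None of the 47 genes passed the test of both shRNA libraries against the control. The pair of shRNA libraries lay on opposite sides of the control for many members, and each gene's own residual in that test comes from this pair (1 degree of freedom), weighed with a spread shared by all genes (8.35 prior degrees of freedom). By edgeR's quasi-likelihood test, 0 members were called higher and 0 lower at an adjusted p under 0.05 (0% of 17801 genes in each direction), with adjusted p = 1 for every tested member. At an unadjusted p under 0.05 there were 3 members higher, XAF1, MX2 and IFI27 (0.41% of all genes), and 0 lower (0.921%). DESeq2 called 0 members (0.00622% of all genes higher and 0.0871% lower), as did edgeR's likelihood ratio test (0.0112% and 0.202%), limma-voom (0% and 0.00562%) and the quasi-likelihood test on all genes with a count (0.0136% and 0.126%). XAF1 had the smallest unadjusted p of the list, 0.00808, with a log2 fold change of 1.75 (SE 0.52) and adjusted p = 1 by edgeR. The fit assumes that the single control varies like the shRNA lines, and a missed threshold does not show that the levels were alike.

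The sequence that ISGF3 binds is shown here because ISGF3 acts through it on many genes of this kind. RefSeq (GRCh38.p14) gave a promoter of 250 bases before to 50 after the gene start for 37 of the 47 genes. The core of the element, GAAA followed by any 2 bases and GAAA again, read on either strand, was in 23 of these 37 promoters (62.2%) and in 3.65% of all 27305 promoters of the table. The letters TTCNNNGAA, the gamma-activated site, which reads alike on both strands, were in 8 of 37 (21.6%) and in 7.88% of all. Matches of the 2 patterns shared bases in 4 of the 37 promoters. Stretches before the RefSeq gene start are shown for the IFIT and OAS member with the highest ratio among those with a copy outside counted exons, for ISG15, and for IFI27, chosen after its values were seen. Capitals mark the matches, and the MX1 promoter, the one MX entry, had no copy that lay both before its start and outside counted exons. They lie at chr10:89327791-89327893 (IFIT3), chr12:112938281-112938351 (OAS3), chr1:1013334-1013422 (ISG15) and chr14:94110578-94110677 (IFI27), all on the plus strand.
IFIT3: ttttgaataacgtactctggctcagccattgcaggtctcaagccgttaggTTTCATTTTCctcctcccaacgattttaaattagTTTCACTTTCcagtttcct
OAS3: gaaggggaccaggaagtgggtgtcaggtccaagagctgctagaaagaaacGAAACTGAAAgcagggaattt
ISG15: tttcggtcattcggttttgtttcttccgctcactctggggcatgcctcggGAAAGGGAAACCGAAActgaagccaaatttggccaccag
IFI27: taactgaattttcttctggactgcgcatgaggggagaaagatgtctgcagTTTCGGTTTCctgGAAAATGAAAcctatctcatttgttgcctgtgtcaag
In ISG15 a pair of copies overlaps on one strand, and in IFI27 a pair lies on opposite strands. Members with a copy had a median log2 ratio to the control of -0.15 under the label shRNA 1 and 0.66 under the label shRNA 2 (n = 23). Members without one had -0.11 and 0.68 (n = 14). At least 2-fold higher under the label shRNA 2 were 7 of the 23 and 2 of the 14 (2.98% of all genes tested). The difference between these groups was not tested, and the letters say nothing of which factor was bound.

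The RNA sensors differed by less than 2-fold, all of them higher than the control under the label shRNA 2. RIGI, which detects viral RNA with a triphosphate end, stood at 164.9 and 228.4 CPM under the labels shRNA 1 and shRNA 2 and at 181.2 CPM in the control. IFIH1, which encodes the sensor MDA5 of long double-stranded RNA, stood at 78.6 and 153.3 CPM, against 101 CPM in the control. DHX58, their relative LGP2, had 20.2 and 39.1 CPM, against 26.4 CPM in the control. All 3 thus lay below the control under the label shRNA 1 and above it under the label shRNA 2. EIF2AK2, the kinase PKR that halts translation on double-stranded RNA, lay above the control in both, at 143.9 and 173.8 CPM against 133.5 CPM. ZNFX1, an RNA helicase and sensor whose gene (chromosome 20, 49237946 to 49278426, minus strand) adjoins the SNORD12B host ZFAS1, stood at 181.6 and 246.9 CPM under the labels shRNA 1 and shRNA 2, against 190.5 CPM in the control. Its ratio was 0.953 (0.905 to 1.00) under the label shRNA 1 and 1.30 (1.24 to 1.36) under the label shRNA 2, between the lowest and highest ratios of the other sensors, and 4.84% of its exonic bases lie opposite ZFAS1 exons. SNORD12 had no count and SNORD12C at most 2 in a library, and ZFAS1 itself stood at 14.2 and 9.49 CPM, against 12.1 CPM in the control. The median of the list without ZNFX1 was 0.65 under the label shRNA 2.

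Among the transcription factors of the pathway, only STAT2 was abundant. STAT2 stood at 71.3 and 128.9 CPM under the labels shRNA 1 and shRNA 2 and at 77.7 CPM in the control, a ratio of 1.66 (1.55 to 1.78) under the label shRNA 2. IRF7, the factor that amplifies interferon alpha genes, had 37 and 18 counts under the labels shRNA 1 and shRNA 2, against 38 in the control. It was thus the one member with an interval wholly below the control in the library labelled shRNA 2, with a ratio of 0.418 (0.225 to 0.751). IRF9, the DNA-binding part of ISGF3, had 20 and 28 counts, against 20 in the control. Its level is uncertain, because 48.4% of its exonic bases lie under exons of another gene on the same strand, and the authors' command did not count reads shared by genes.

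ISG15 and OASL were among the most abundant members, and both were lower than the control only in the library labelled shRNA 1. ISG15, the ubiquitin-like modifier, stood at 473.2 and 916.4 CPM under the labels shRNA 1 and shRNA 2, against 789.6 CPM in the control. Per kilobase of exon it was the highest of the list in each library, at 502.3, 972.8 and 838.2 CPM per kilobase in the same order. The ratio of ISG15 to the control was 0.599 (0.582 to 0.617) under the label shRNA 1 and 1.16 (1.13 to 1.19) under the label shRNA 2. UBE2L6, the enzyme that passes ISG15 on, stood at 29.5 and 61.3 CPM, against 36.8 CPM. HERC5, the ligase that attaches it, stood at 4.8 and 11.2 CPM, against 4.36 CPM in the control, 2.57-fold higher under the label shRNA 2 (1.94 to 3.45). Under the label shRNA 1 the interval of HERC5 held 1 (0.779 to 1.56) and that of UBE2L6 lay below it (0.708 to 0.91). USP18, which removes ISG15 and restrains the type I receptor, had 19.5 and 31.7 CPM, against 21.5 CPM, and HERC6 had 39.5 and 49.7 CPM, against 38.7 CPM.

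The OAS enzymes make a second messenger when they bind double-stranded RNA, and their genes OAS1, OAS3 and OAS2 adjoin on chromosome 12. These 3 shared a pattern, below the control under the label shRNA 1 and above it under the label shRNA 2. OAS1 stood at 111.3 and 260.7 CPM under the labels shRNA 1 and shRNA 2, against 152.6 CPM in the control. OAS2 stood at 127 and 269.2 CPM, against 152.8 CPM, and OAS3 at 206.5 and 345.6 CPM, against 237.6 CPM. OASL, a relative that lacks this enzyme activity and lies apart on the same chromosome, stood at 329.4 CPM under the label shRNA 1 and 737.5 CPM under the label shRNA 2, against 729.2 CPM in the control. Its ratio was 0.452 (0.437 to 0.467) under the label shRNA 1 and 1.01 (0.986 to 1.04) under the label shRNA 2, so it departed from the control in one library alone.

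The IFIT proteins bind viral RNA ends, and their genes adjoin on chromosome 10. None reached 2-fold in either library. IFIT1 stood at 327.5 and 413.9 CPM under the labels shRNA 1 and shRNA 2 and at 334 CPM in the control, and IFIT3 at 282.2 and 464.6 CPM, against 294.4 CPM. IFIT2 was the most abundant, at 356.4 and 691.5 CPM, against 539.5 CPM, and had the lowest ratio of the family under the label shRNA 1 at 0.661 (0.638 to 0.684). IFIT5 was the least abundant, at 28.9 and 37.4 CPM, against 30.1 CPM in the control.

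Of the 4 membrane restriction factors, 3 stood at least 2-fold above the control under the label shRNA 2, and IFITM3 stood 1.59-fold above it. IFITM proteins hinder the fusion of viruses with the membrane, and BST2, also called tetherin, holds budding particles at the cell surface. IFITM1 stood at 27.7 and 100.7 CPM under the labels shRNA 1 and shRNA 2, against 30.7 CPM in the control, a ratio of 3.28 (2.96 to 3.64) under the label shRNA 2. IFITM3 stood at 222.9 and 520.4 CPM, against 327.2 CPM, and IFITM2 had only 17 and 79 counts, against 24 in the control. BST2 stood at 34.4 and 83.3 CPM, against 34.1 CPM in the control, 2.44-fold higher under the label shRNA 2 (2.21 to 2.7). The IFITM genes lie side by side on chromosome 11 and resemble one another, so reads can be lost or split between them. IFITM1 shares 32.5% of its exonic bases with IFITM2 on the same strand, and 21.3% of the bases of IFITM3 lie opposite an antisense gene. BST2 (chromosome 19, 17402939 to 17405648) has no such overlap.

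MX1 and MX2 encode dynamin-like GTPases against influenza-like viruses and lentiviruses and are neighbours on chromosome 21. MX1, usually a prominent interferon marker, had 13 and 39 counts under the labels shRNA 1 and shRNA 2, against 15 in the control, or 0.0992, 0.26 and 0.113 CPM per kilobase. MX2 stood at 7.04 and 20.5 CPM, against 4.62 CPM in the control, the largest ratio of the list under the label shRNA 2 at 4.44 (3.43 to 5.81). MX2 was also 1.52-fold higher under the label shRNA 1 (1.12 to 2.09). Its log2 fold change for the pair was 1.58 (SE 0.64, unadjusted p = 0.0358, adjusted p = 1 by edgeR).

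A like contrast of neighbours was seen on chromosome 2. RSAD2, which encodes viperin, stood at 16.6 CPM under the label shRNA 1 and 76.1 CPM under the label shRNA 2, against 54.4 CPM in the control. CMPK2, the nucleotide kinase gene next to it, had 0, 1 and 0 counts in the same order, and a count of 0 allows up to 0.195 CPM in the control. RSAD2 had the second lowest ratio under the label shRNA 1, 0.305 (0.263 to 0.351). SAMHD1, which breaks down deoxynucleotides, had 33.2 and 73.5 CPM, against 47.2 CPM in the control.

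**Figure D3:**
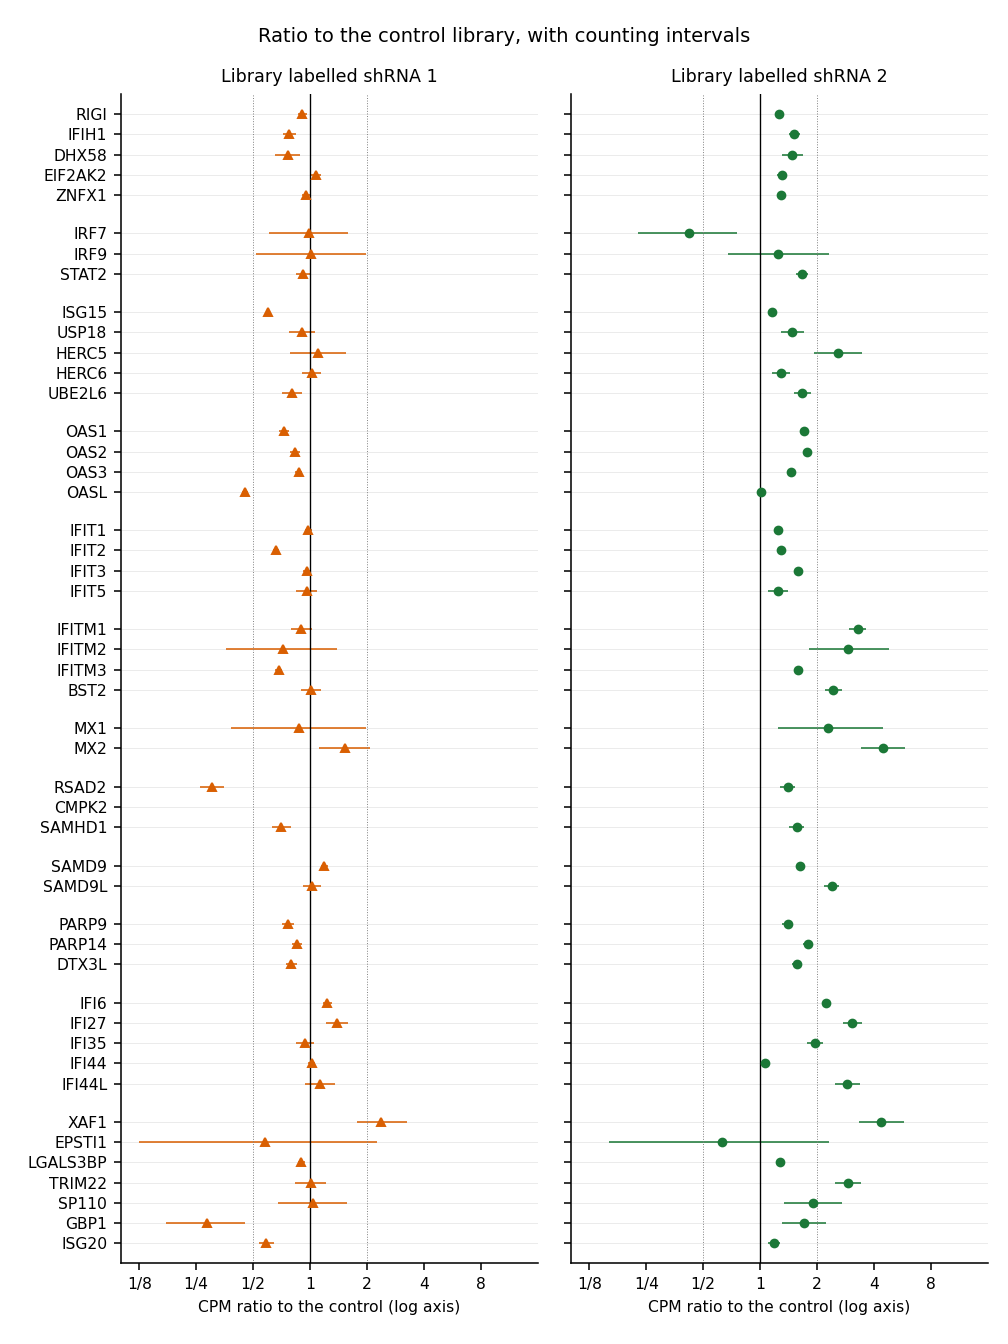
CPM ratio of each gene to the control library on a log axis, for the libraries labelled shRNA 1 (left) and shRNA 2 (right), with bars for 95% exact intervals of counting error. Dotted lines mark 2-fold, and CMPK2 is not drawn because it had no count in the control. Under the label shRNA 2, 42 of 47 intervals lie wholly above 1 (23.3% of all genes tested) and 1 wholly below (24.2%), and under the label shRNA 1, 21 lie wholly below 1 (24.1%) and 6 wholly above (25.6%).

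SAMD9 and SAMD9L, adjoining genes on chromosome 7 whose products restrict poxviruses, were not lower than the control in either library. SAMD9 stood at 246.3 and 337.2 CPM under the labels shRNA 1 and shRNA 2, against 206.6 CPM in the control. SAMD9L stood at 43.6 and 101.6 CPM, against 42.4 CPM, 2.4-fold higher under the label shRNA 2 (2.19 to 2.62). PARP9 and DTX3L, which form a complex and share a start region on chromosome 3, and the nearby PARP14 lay on the same sides of the control. Their ratios were 0.764, 0.796 and 0.854 under the label shRNA 1, and 1.4, 1.56 and 1.78 under the label shRNA 2. PARP14 was the most abundant of them in CPM, at 127.6 and 266.2 CPM, against 149.4 CPM in the control.

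Among the genes named IFI, IFI27 and IFI6 lay above the control with both labels, by intervals that did not hold 1. IFI27, a small membrane protein, stood at 34.1 and 75.1 CPM under the labels shRNA 1 and shRNA 2, against 24.5 CPM in the control, and IFI6 at 167.7 and 301.4 CPM, against 135.7 CPM. The log2 fold change of IFI27 for the pair was 1.16 (SE 0.49, unadjusted p = 0.043, adjusted p = 1 by edgeR). IFI44L stood at 16.9 and 43.4 CPM, against 15 CPM, while its neighbour IFI44 on chromosome 1 stayed at 249.5 and 258.3 CPM, against 244.8 CPM. IFI44 was thus nearly level across the libraries. IFI35 had 38.9 and 80.6 CPM, against 41.3 CPM in the control.

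The remaining members ranged from near-silent to abundant. XAF1, a pro-apoptotic protein, stood at 9.93 and 18.2 CPM under the labels shRNA 1 and shRNA 2, against 4.17 CPM in the control, with ratios of 2.38 (1.77 to 3.25) and 4.36 (3.32 to 5.8). Opposite-strand exons, with PRAL as partner, cover 38.3% of its bases. Counting used strand, but the kit is not named in the sources used here, so its level is uncertain. TRIM22, a ubiquitin ligase, stood at 14.5 and 41.9 CPM, against 14.4 CPM, and thus level with the control under the label shRNA 1. GBP1, a guanylate-binding protein, had 24 and 164 counts under the labels shRNA 1 and shRNA 2, against 85 in the control, the lowest ratio of the list under the label shRNA 1 at 0.285 (0.173 to 0.453). ISG20, an exonuclease, had 52.9 and 106.5 CPM, against 90.0 CPM. LGALS3BP, a secreted glycoprotein, varied less, at 274 and 388.1 CPM against 304.9 CPM. SP110, a nuclear body protein, had 50 and 105 counts, against 49 in the control, with other genes over 20.9% of its bases on the opposite strand and 24.3% on its own. EPSTI1 had 4 and 5 counts, against 7 in the control, so no difference was detectable at this depth.

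The ratio was also read by level, in classes chosen after the values were seen. Of the 27 members that averaged at least 50 CPM, 4 were at least 2-fold above the control under the label shRNA 2, against 0.239% of all genes at that level. Of the 13 members from 5 to 50 CPM it was 6, against 0.932%, and of the 7 below 5 CPM it was 2, against 7.9%. The median log2 ratios of the members in that library differed little between these classes, at 0.64, 0.76 and 0.55 in the same order.

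The upstream part of the pathway was then read from lists of genes other than the 47. Of 21 interferon genes, 4 passed the filter: IFNB1 and the lambdas IFNL1, IFNL2 and IFNL3. IFNL1 had 168 and 464 counts under the labels shRNA 1 and shRNA 2, against 346 in the control, and IFNL3 had 137 and 466, against 234. IFNL2 had 92 and 335 counts, against 249, and IFNB1 had 12 and 41, against 41. All 4 were therefore lower than the control under the label shRNA 1, with ratios from 0.296 (IFNB1, 0.141 to 0.573) to 0.591 (IFNL3, 0.475 to 0.733). In the library labelled shRNA 2 the ratio of IFNL3 was 1.76 (1.5 to 2.07), while that of IFNB1 was 0.883 (0.559 to 1.4). IFNL2 and IFNL3 are near-identical copies, so reads may be lost or split between them. Interferon alpha genes and IFNG had at most 1 count in a library.

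**Figure D4:**
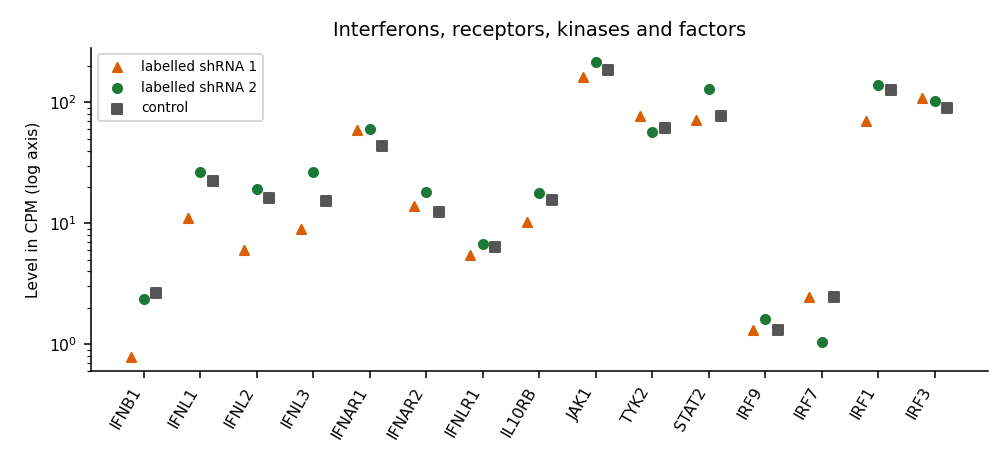
Level in CPM on a log axis of interferons, receptor chains, kinases and transcription factors in the libraries labelled shRNA 1 (orange triangles) and shRNA 2 (green circles) and in the control (grey squares), 1 library each. The lambda genes and IFNB1 are lowest under the label shRNA 1, while the receptors, Janus kinases and STATs lie within 2-fold of the control.

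Of 11 genes for receptors, Janus kinases and STATs, 0 were at least 2-fold from the control in either library. Over all genes tested, 3.74% were at least 2-fold higher and 5.58% lower under the label shRNA 1. Under the label shRNA 2 these shares were 2.98% and 3.46%, so 0 of 11 is not read as departing from them. Of the 11, 5 lay above the control under the label shRNA 1 (51.5% of all genes tested) and 9 under the label shRNA 2 (49.7%). Their median log2 ratios were -0.14 under the label shRNA 1 and 0.20 under the label shRNA 2. JAK2 stood at 15.1 and 19.95 CPM under the labels shRNA 1 and shRNA 2, against 11.7 CPM in the control. IL10RB, the chain the lambda receptor shares, stood at 10.2 and 17.8 CPM, against 15.5 CPM, and IFNAR2, a chain of the type I receptor, at 13.9 and 18.2 CPM, against 12.4 CPM. IFNLR1, the lambda-specific receptor chain, stood at 5.46 and 6.78 CPM, against 6.38 CPM. These 3 receptor chains were thus highest under the label shRNA 2, by less than 2-fold. The intervals against the control held 1 there for IL10RB (0.968 to 1.37) and IFNLR1 (0.807 to 1.405). Exons of other genes cover 39.1% of the bases of IFNAR2 on the opposite strand and 9.36% on its own. They cover 22.3% of the bases of IL10RB on its own strand, so the levels of IFNAR2 and IL10RB are uncertain. The 2 of the 11 below the control under the label shRNA 2 were TYK2 and IFNGR1. TYK2 stood at 77.1 and 57.0 CPM, against 61.3 CPM, and IFNGR1 at 32.7 and 40.9 CPM, against 42.6 CPM.

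Among 14 other sensors and adaptors, 3 were at least 2-fold above the control under the label shRNA 2 (2.98% of all genes tested). Of these, ZBP1 and AIM2 had at most 7 counts and did not pass the filter. The third, IFI16, a DNA sensor, stood at 32.8 and 58.5 CPM, against 23.8 CPM in the control. TLR3, an endosomal sensor of double-stranded RNA, stood at 13.5 and 30.4 CPM, against 15.4 CPM. These sensors were thus highest under the label shRNA 2. CGAS, a DNA sensor, was instead lower under the label shRNA 2, at 56.4 and 30.1 CPM, against 44.6 CPM.

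The 6 feedback inhibitors lay on both sides of the control. They had medians of 0.01 and -0.03, with SOCS1 at 4.27 and 3.79 CPM, against 2.93 CPM in the control, and SOCS3 at 25.1 and 31.3 CPM, against 34.4 CPM. The phosphatase genes PTPN6 and PTPN2 went opposite ways under the label shRNA 1, with ratios of 0.624 (0.562 to 0.693) and 1.52 (1.39 to 1.65). Of 6 other IRF factors, none was 2-fold from the control, which is not read as departing from the shares of all genes given above. IRF1 stood at 69.8 and 139.1 CPM, against 126 CPM. IRF2 and IRF5 also lay below the control under the label shRNA 1, with ratios of 0.783 (0.688 to 0.891) and 0.583 (0.359 to 0.931).

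A further 32 interferon-induced genes outside the 47 were also mostly above the control under the label shRNA 2. There, 29 of the 32 lay above the control (49.7% of all genes tested) and 3 were at least 2-fold higher (2.98%). Under the label shRNA 1, 13 lay above it (51.5%) and 2 were at least 2-fold lower (5.58%), a share near that of all genes. Their median log2 ratios were -0.14 under the label shRNA 1 and 0.42 under the label shRNA 2. BATF2, a transcription factor, had 10 and 116 counts under the labels shRNA 1 and shRNA 2, against 14 in the control, a ratio of 7.32 (4.19 to 13.8) under the label shRNA 2. LAMP3, a lysosomal membrane protein, stood at 29.9 and 91.0 CPM, against 28.1 CPM, and DDX60L, a helicase-like gene, at 93.2 and 121.8 CPM, against 57.8 CPM. RTP4, a chaperone of receptor proteins, stood at 5.66 and 17.02 CPM, against 12.1 CPM. GBP2 lay below the control with both labels, at 2.89 and 15.1 CPM under the labels shRNA 1 and shRNA 2, against 23.2 CPM in the control. By edgeR's quasi-likelihood test, 0 genes of any of these lists had an adjusted p under 0.05, and at an unadjusted p under 0.05 there was 1 of the 32, and 0 in the other pathway lists.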

How the data were processed

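Raw counts per gene, deposited as 1 table, were made by the authors with featureCounts 1.6.4 against an hg38 annotation with strand option 1, per the file headers. The headers differ from the tools that stand in the submitters' processing notes, which are TopHat2 and HTSeq on hg19. The exon length per gene is also deposited by the authors in that table. All 52179 identifiers shared with GENCODE 29 in the same version had the same start and end. No source used here names the kit for the libraries.

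The 17801 genes that filterByExpr keeps entered the fit, after TMM scaling (factors 1.004, 1.003 and 0.993 for the labels shRNA 1 and shRNA 2 and the control). The pair of shRNA libraries was tested against the control over all these genes with edgeR's two-sided quasi-likelihood test, with p adjusted by Benjamini and Hochberg's method (threshold 0.05). Versions were DESeq2 1.42.0, edgeR 4.0.16 and limma 3.58.1, under R 4.3.3. The SE is the absolute log2 fold change over the square root of F. Ratios of single libraries have no test. Their log2 values use a prior count of 2, and counts of genes past 2-fold rest on these. Ratios of CPM have 95% exact conditional intervals.

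The members, the pathway lists and the rule that names their genes were chosen with earlier results of these data known. The rule names every member, the SNORD12B locus, and, in each other list, at most 4 genes that reach 1 CPM, taken by size of ratio. Genes named outside it were chosen after their values were seen. Some genes that the rule names are not reported here. Alternatives covered the scaling, the filter, the prior count, the test, the fold, opposite-strand overlap and leaving out each shRNA library.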

Additional observations from a re-analysis of the deposited data

How the results depend on the processing

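The 2-fold counts of members, the medians of single-library ratios and the counts of calls stayed within 1.5 times or kept their direction under median-of-ratios scaling, a mean of at least 1 CPM and a prior count of 0.5. At 1.5-fold in place of 2-fold, 26 members were higher under the label shRNA 2 (9.38% of all genes tested) and 2 under the label shRNA 1 (10.8%). At that fold, 34 were higher under the label shRNA 2 than under the label shRNA 1 (15.8%). Under the label shRNA 1, 6 of the 47 were at least 1.5-fold lower than the control. That is near the share of all genes tested, about 12.7%, and is not read as departing from it. Without the 3 members that have over 5% opposite-strand overlap (XAF1, IFITM3 and SP110), 0 were 2-fold higher under the label shRNA 1. Over all genes, those called higher and lower were 1 and 14 with DESeq2, 4 and 37 when every gene with a count entered, 2 and 36 by the likelihood ratio test, 0 and 1 with limma-voom, and 0 and 1 with total counts. None was a member. The median member log2 fold change for the pair was 0.25, and leaving out one shRNA library at a time gave -0.14 to 0.66, each a single library with no test, so the direction of the pair's value depends on which library is used. GBP1 had a log2 fold change of -0.001 for the pair and 0.015 with total counts. No paired analysis was possible because the control has no replicate number and there is 1 control library. Depth limits IRF7, IRF9, IFITM2, MX1, CMPK2 and EPSTI1, each under 100 counts in every library.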

Other observations

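Genes that lean towards interferon gamma were also read from a list, which shares GBP2, IRF1 and SOCS1 with the lists above. Of its 15 genes, 5 were at least 2-fold below the control under the label shRNA 1 (5.58% of all genes tested) and 1 was at least 2-fold above (3.74%). Under the label shRNA 2 the numbers were 0 (3.46%) and 2 (2.98%), and counts as small as 1 or 2 of 15 genes are not read as departing from these shares. Their median log2 ratios were -0.59 under the label shRNA 1 and 0.14 under the label shRNA 2. GBP4, a guanylate-binding protein, had 70 and 335 counts under the labels shRNA 1 and shRNA 2, against 262 in the control, a ratio of 0.27 (0.204 to 0.353) under the label shRNA 1. GBP5 had 5 and 20 counts, against 21, and IDO1 and HLA-DRA, also among the 5, had at most 6 counts in a library. CXCL9, above the control with both labels, had 5 and 13 counts, against 1. The chemokine CXCL11 had 41 and 112 counts, against 31 in the control, a ratio of 3.19 (2.13 to 4.92) under the label shRNA 2, while CXCL10 stood at 12.2 and 22.2 CPM, against 13.2 CPM.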
